A study of Mus musculus with 102 samples.

Results

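The genes described here are the mouse receptor genes whose symbol is Gpr followed by a number. They were found by symbol alone: every probe set that names a single gene of this form was taken, and each gene was read from its probe set with the highest mean over 48 regions of the central nervous system. There were 60 such genes, with 92 probe sets, among 18193 genes that a probe set names alone. In 51 of the 60 at least 1 region had a mean log2 value of 7 or more, and these form the regional profile, while 9 stayed under it. At the edge, Gpr39 at 7.01, Gpr84 at 7.12 and Gpr174 at 7.14 were just inside. Gpr35 at 6.99, Gpr132 at 6.88 and Gpr33 at 6.55 were just outside. Gpr39, Gpr151 and Gpr174 reached 7 in 1 region each, so a test of that region draws on the value that this limit used. For every member, the highest region was picked from the same values that its test uses.

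The samples were tissue punches from 51 regions of male Balb/c mice aged 7 to 8 weeks, kept under light/dark cycles and sampled under these or in constant darkness. Each region has 2 arrays (Affymetrix Mouse Genome 430 2.0), each holding RNA pooled from 6 times of day 4 h apart, so the values average over the day and over animals. Strain, sex, age and pooling are common to all groups, and the 2 arrays of a region are separate pools. The 48 regions of the profile comprise 17 of the telencephalon, 6 of the thalamus, 12 of the hypothalamus, 6 of the mesencephalon, 2 of the pons, 3 of the cerebellum and 2 of the spinal cord. The retina, pituitary and pineal are given separately. The regions were collected in 4 periods. For the highest region of each member, some other named regions and the divisions, a comparison with regions of the same period alone was also read. Where its value was over 1.5 times apart, that value is given too. It was not read singly for the other regions. For the retina, pituitary and pineal, and for genes that are not members, it was not run. Values are log2 expression values after RMA, so a difference of 1 is a 2-fold difference, and they ran from 3.88 to 14.87 over the arrays. A p-value given below is limma's, adjusted by Benjamini-Hochberg over all 45037 probe sets with a threshold of 0.05, and a difference stands with its standard error. A punch is a mixture of cells, and in such bulk samples fewer cells of a type and less RNA per cell cannot be told apart. The defining genes of the regions were where the labels put them: all 6 measured habenula markers were higher in the habenular nucleus (Hb), all 6 measured suprachiasmatic markers in the suprachiasmatic nucleus (SCN), and all 9 dopaminergic markers in the substantia nigra (SN).

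G protein-coupled receptors cross the membrane 7 times, bind a signal outside the cell and switch on a G protein inside it, which then raises or lowers cyclic AMP or releases calcium. A Gpr number was given to receptors found by sequence before a ligand was known. Many remain orphans, some signal without a ligand, and some have since been assigned a lipid, a proton or a peptide as ligand. A few Gpr symbols belong to proteins of the Golgi or lysosome that resemble receptors but are not known to work as such.

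The 60 genes were far from alike in how much they varied over the brain. The difference between the highest and the lowest region mean ran from 0.39 for Gpr171 to 7.04 for Gpr6, with a median of 1.37, against a median of 0.95 over all genes. Of the 60, 58 differed among the 48 regions in the moderated F test, where the background is 91.1% of all probe sets and 93.1% of genes. The 2 others were Gpr15 (adjusted p = 0.215) and Gpr143 (adjusted p = 0.325). Compared with the mean of the other 47 regions, 23 of the 60 were higher by more than 1 log2 unit in at least 1 region, with a background of 19.5% of probe sets and 21.5% of genes. Of the 60, 10 were higher by more than 2 units somewhere, with a background of 4.69% and 5.64%. Over all 2880 pairs of a member and a region, 515 were higher (17.9%) and 604 lower (21%), beside backgrounds of 13.9% and 14.7% of probe set pairs and 15.9% and 17.3% of gene pairs. The residual SD between the 2 arrays of a region had a median of 0.12 over all probe sets, not the members alone. This is small beside the wide ranges, but less so beside the narrow ones, such as 0.39 for Gpr171.

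Peaks fell mostly in the forebrain. Of the 51 profile members, 19 had their highest region in the telencephalon, 18 in the hypothalamus, 5 in the thalamus and 5 in the cerebellum. These shares (37.3%, 35.3%, 9.8% and 9.8%) lie near those of all 14448 genes with a region mean of at least 7 (33.8%, 32.7%, 8.63% and 10.8%). CA1 of the hippocampus and the supraoptic nucleus (SO) each held the peak of 5 members (9.8%, beside 5.74% and 7.69% of all genes). The SCN held that of 4 (7.84%, beside 3.73%). The lowest region was in the cerebellum for 15 of the 51 (29.4%, beside 11.4% of all genes), in 8 of them the cerebellar lobe. In 28 of the 51 both replicates put the same region on top. In 24 both arrays of the highest region lay above every array of all other regions. The shares of all genes for these counts were not computed, so they describe the members alone.

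**Figure D1:**
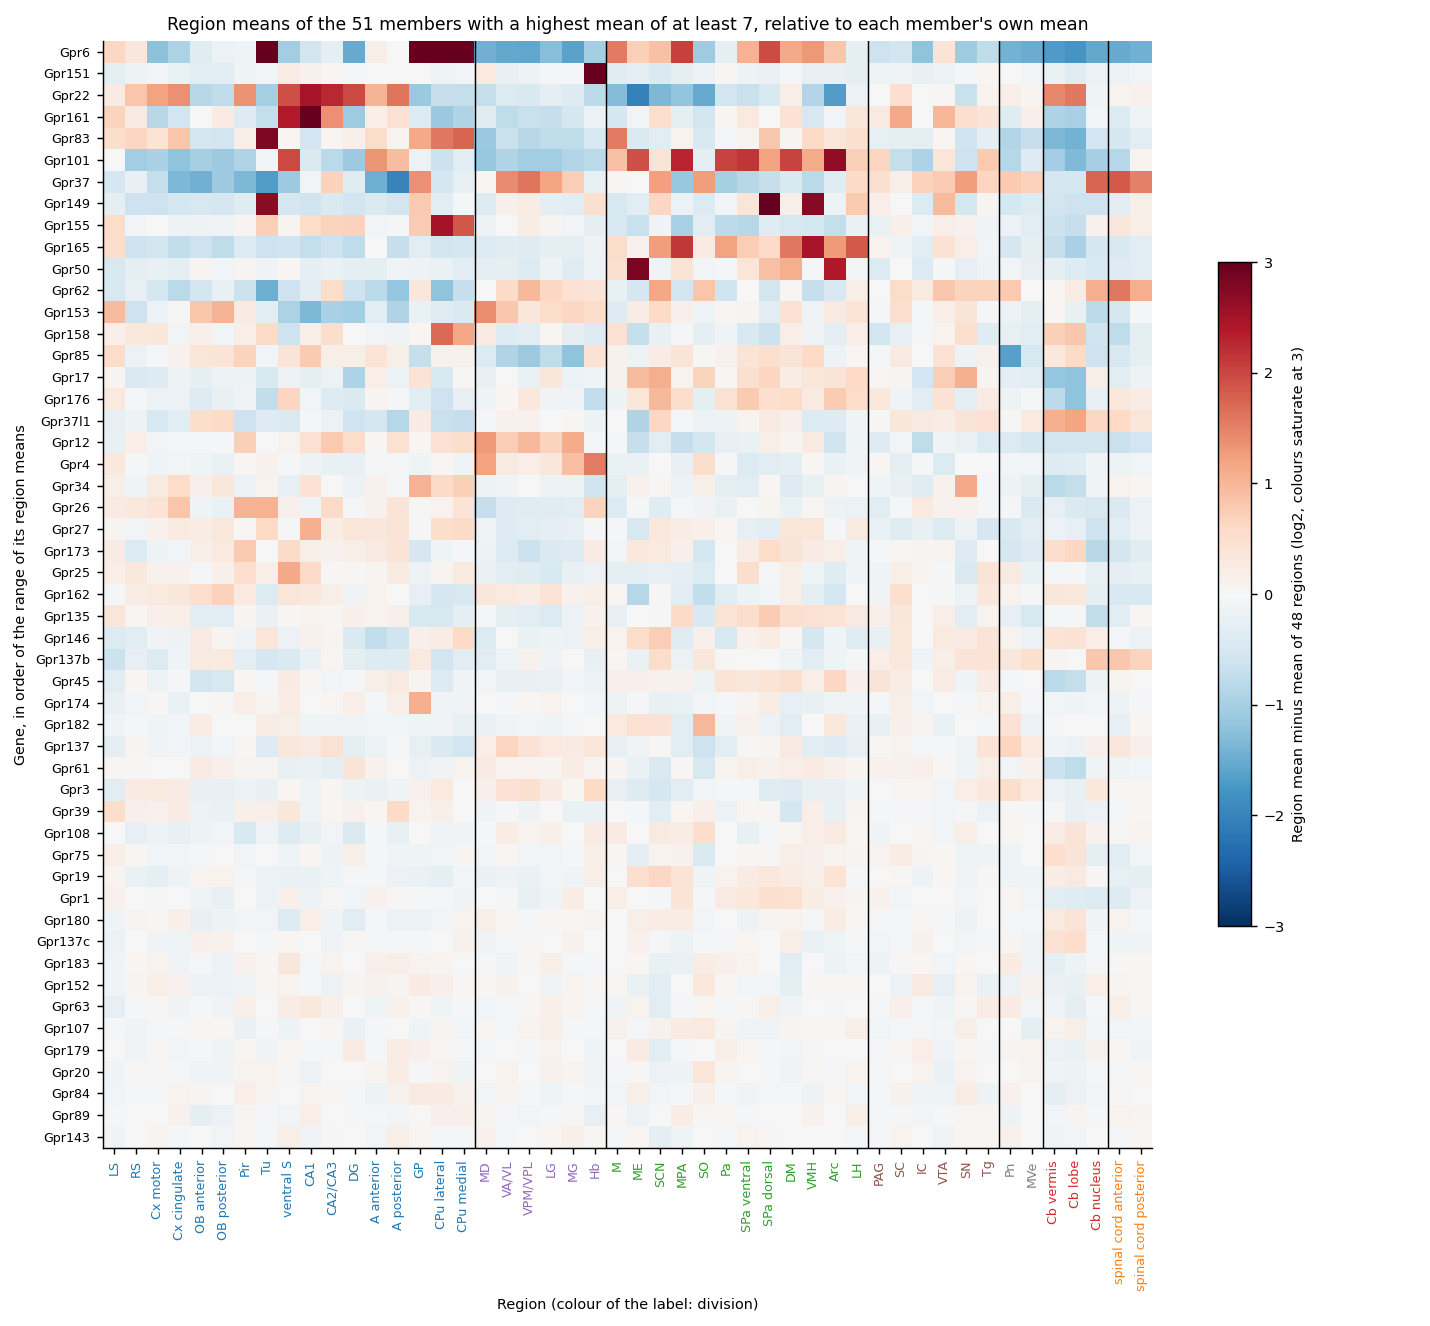
Region means of the 51 profile members (rows, ordered by range) in 48 regions (columns, grouped by division), each minus the member's mean over the regions, on the log2 scale with colours saturating at 3. Strong cells are few and lie in different columns for different members: striatal columns for Gpr6, 1 habenular column for Gpr151, hippocampal columns for Gpr22 and Gpr161, and a block of hypothalamic columns for Gpr101 and Gpr165.

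The widest range belonged to a striatal pattern, led by Gpr6 and Gpr83. Gpr6, a receptor that raises cyclic AMP without an added ligand, read 11.61 and 11.82 in the medial caudate putamen (CPu medial), 11.58 and 11.85 in CPu lateral, a mean of 10.97 in the olfactory tubercle (Tu), and 9.55 and 9.83 in the globus pallidus (GP). The 2 parts of the caudate putamen overlapped, and both were above Tu, which was above GP. Against the other 47 regions the difference was 5.37 ± 0.17 in CPu medial (adjusted p = 1.35e-33), 4.60 ± 0.17 in Tu (adjusted p = 2.74e-30) and 3.30 ± 0.17 in GP (adjusted p = 7.78e-23). All 9 measured markers of striatal projection neurons were higher in each of these 4 regions too.

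Gpr6 had a second group of raised regions in the hypothalamus. The medial preoptic area (MPA) read 8.70 and 8.32, the dorsal subparaventricular zone (SPa dorsal) 8.51 and 8.31, and the mammillary body (M) 7.83 and 8.22. These differed from the other regions by 2.10 ± 0.17 (adjusted p = 2.27e-15), 1.99 ± 0.17 (adjusted p = 1.73e-14) and 1.60 ± 0.17 (adjusted p = 8.11e-11). In MPA only 2 of the 9 striatal markers were higher and 6 were lower, so the list did not move with Gpr6 there. Gpr6 was lowest in the cerebellar lobe, at 4.75 and 4.61.

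Gpr83, a receptor linked to feeding and energy balance, had a different order of the same regions. Tu came first at 11.92 and 11.85, then CPu medial at 10.81 and 10.86 and CPu lateral at 10.61 and 10.72. Both Tu arrays lay above every other array, with a difference of 2.86 ± 0.09 (adjusted p = 3.35e-33). The mammillary body followed at 10.35 and 10.91 and reached into the range of the caudate putamen, with a difference of 1.58 ± 0.09 (adjusted p = 1.33e-20). A second probe set of Gpr83 was also highest in Tu and followed the first over the regions (r = 0.96).

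Gpr155 and Gpr158 peaked in the lateral rather than the medial caudate putamen. Gpr155, a lysosomal protein that senses cholesterol, read 11.90 and 11.81 in CPu lateral and 11.29 and 11.17 in CPu medial. Its difference in CPu lateral was 2.55 ± 0.10 (adjusted p = 1.12e-29). Gpr158, an orphan of class C that binds a regulator of G protein signalling, read 10.21 and 10.11 in CPu lateral and 9.54 and 9.69 in CPu medial, with a difference of 1.75 ± 0.12 in the former (adjusted p = 2.37e-18). In both genes the lateral arrays lay clear of the medial ones. The cerebellar lobe followed for Gpr158, at 9.23 and 9.26, overlapping with the vermis, and it was lowest in the anterior spinal cord, at 7.62 and 7.74.

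The regions before the start of transcription are shown for 2 pairs of members whose profiles ran together over the 48 regions, Gpr6 with Gpr83 (r = 0.83) and Gpr37 with Gpr62 (r = 0.88, described further on), because a promoter is where a shared motif would be looked for. Each run is the 250 bases before the annotated start in RefSeq, build GRCm38.p6, 5′ to 3′ on the gene's strand. They lie at chr10:41072291-41072540 (minus strand), chr9:14859960-14860209 (plus strand), chr6:25689981-25690230 (minus strand) and chr9:106465986-106466235 (minus strand). Capitals mark matches on either strand to the cyclic AMP response element TGACGTCA, its core TGACG, the SOX core ACAAT, the GC box GGGCGG or the TATA box TATAAA.
Gpr6: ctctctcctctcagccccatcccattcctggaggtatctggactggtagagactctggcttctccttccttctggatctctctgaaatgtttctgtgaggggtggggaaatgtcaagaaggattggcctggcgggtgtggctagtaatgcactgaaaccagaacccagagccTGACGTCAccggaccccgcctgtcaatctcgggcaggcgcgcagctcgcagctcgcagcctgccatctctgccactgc
Gpr83: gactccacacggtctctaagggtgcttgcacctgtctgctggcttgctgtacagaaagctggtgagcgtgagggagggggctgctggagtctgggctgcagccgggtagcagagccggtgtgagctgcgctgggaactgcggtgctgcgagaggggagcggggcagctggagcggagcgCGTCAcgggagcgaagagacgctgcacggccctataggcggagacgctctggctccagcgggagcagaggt
Gpr37: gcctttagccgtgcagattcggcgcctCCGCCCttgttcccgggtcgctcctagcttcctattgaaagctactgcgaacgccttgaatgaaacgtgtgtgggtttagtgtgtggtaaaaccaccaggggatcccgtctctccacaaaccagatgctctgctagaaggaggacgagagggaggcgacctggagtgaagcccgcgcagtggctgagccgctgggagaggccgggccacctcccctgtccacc
Gpr62: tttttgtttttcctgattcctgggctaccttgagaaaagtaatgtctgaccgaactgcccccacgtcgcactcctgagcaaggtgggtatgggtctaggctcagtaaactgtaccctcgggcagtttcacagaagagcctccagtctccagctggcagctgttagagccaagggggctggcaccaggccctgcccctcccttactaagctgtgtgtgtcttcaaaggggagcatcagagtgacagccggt

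The Gpr6 run holds the full element from 78 to 71 bases before the start, within which the core matches once on each strand, and Gpr83 holds the core on the opposite strand from 71 to 67 bases before it. The full element is in 1.55% and the core in 17.8% of all 32851 promoter windows of this length. Of the 61 windows that matched 46 of the 60 members, 1 holds the full element and 14 hold the core (23%). Gpr37 holds 1 GC box, which 32.7% of all windows hold, and the Gpr62 run holds none of the motifs. The SOX core, in 27.7% of all windows, and the TATA box, in 12.4%, matched none of the 4 runs. A match of letters is a description of the window and not a binding site.

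**Figure D2:**
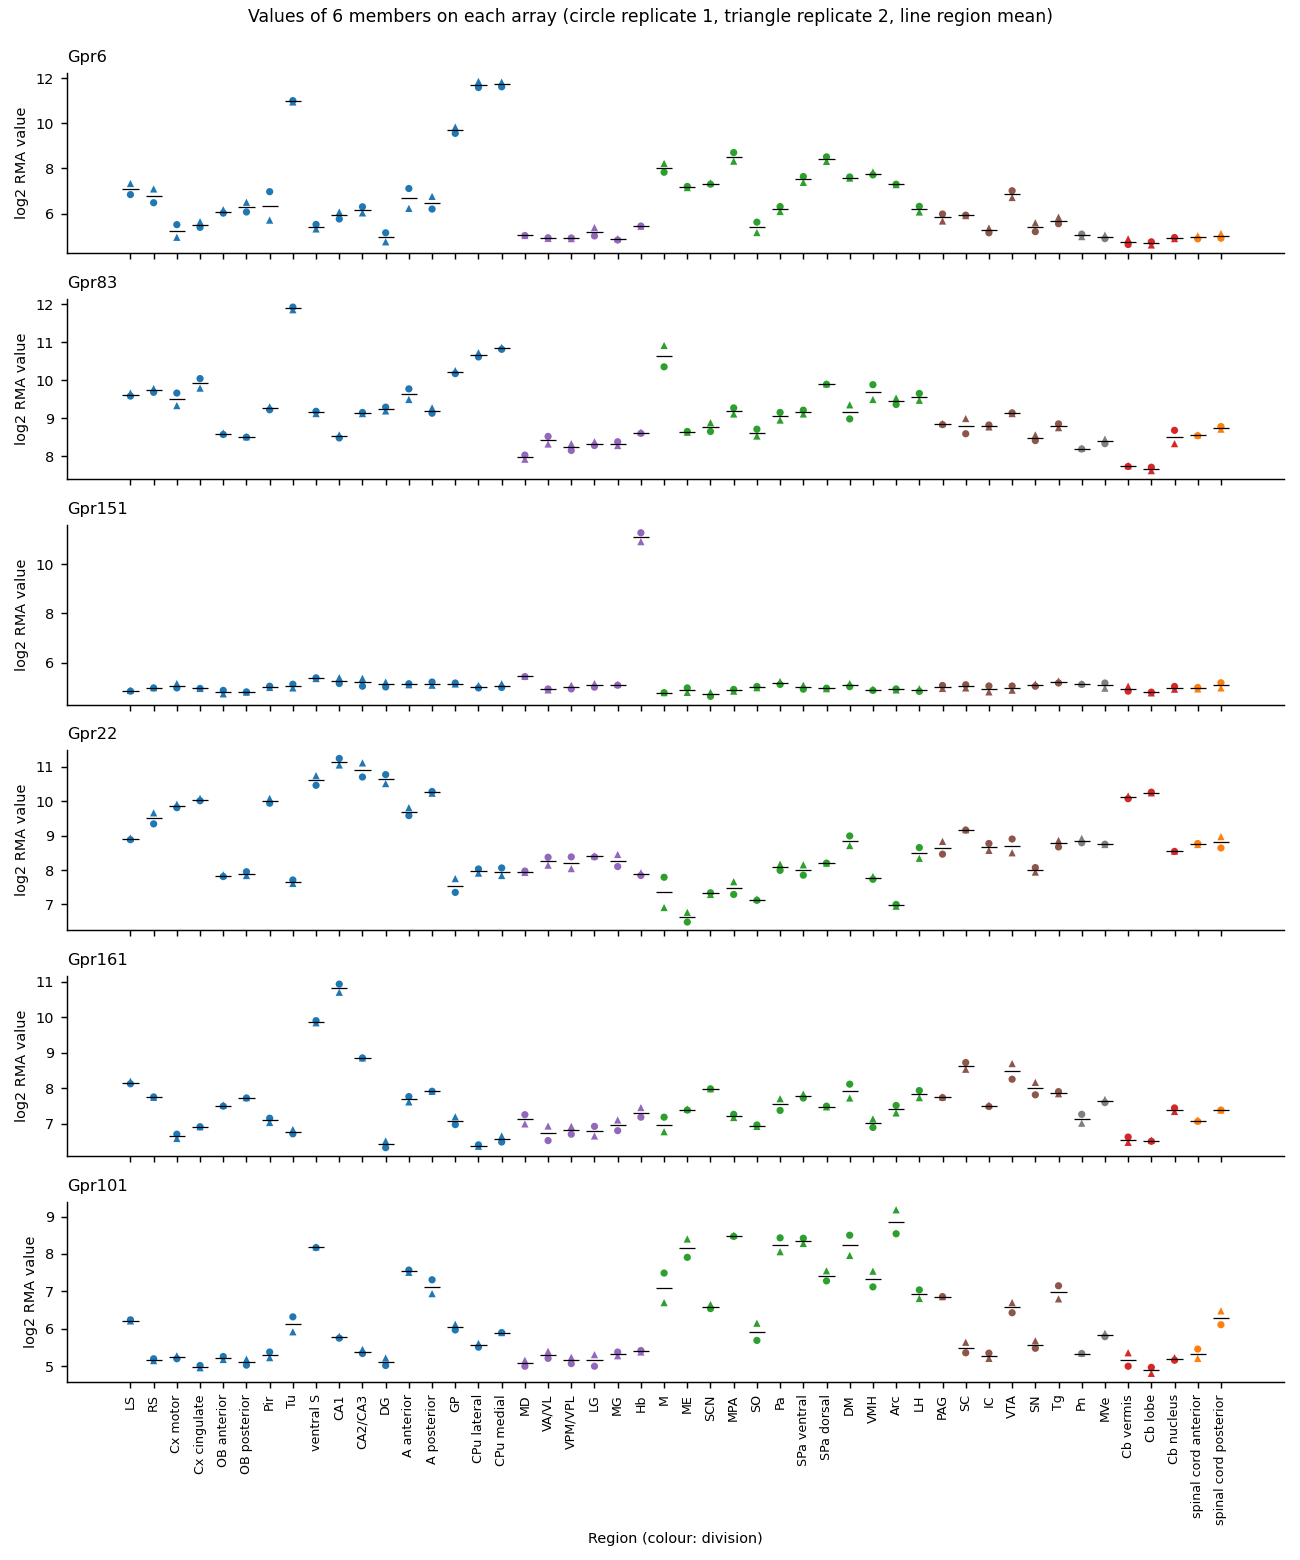
Log2 RMA values of Gpr6, Gpr83, Gpr151, Gpr22, Gpr161 and Gpr101 on each of 96 arrays, by region (circle replicate 1, triangle replicate 2, line region mean, colour division). Gpr151 stands at 11.27 and 10.91 in Hb with all other arrays between 4.64 and 5.45, whereas Gpr6 and Gpr101 fall off in steps over several regions.

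In the habenula and thalamus, Gpr151 gave the sharpest peak of all members. This orphan, related to the galanin receptors and known from habenular neurons, read 11.27 and 10.91 in Hb, while the next region, the mediodorsal thalamic nucleus (MD), read 5.44 and 5.45. The difference in Hb was 6.06 ± 0.07 (adjusted p = 7.06e-55). MD, which lies next to Hb, was itself higher by 0.30 ± 0.07 (adjusted p = 0.000899), and the ventral subiculum (ventral S) by 0.23 ± 0.07 (adjusted p = 0.01), which are far below the difference in Hb. In no other region did Gpr151 pass the test upwards.

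Gpr4, a sensor of protons found on vessels and neurons, was also highest in Hb but was shared with thalamic neighbours. It read 9.84 and 9.68 in Hb, 9.48 and 9.35 in MD, and 9.31 and 8.96 in the medial geniculate nucleus (MG). All 3 regions were higher than the others, by 1.57 ± 0.08 (adjusted p = 3.43e-24), 1.22 ± 0.08 (adjusted p = 2.89e-19) and 0.93 ± 0.08 (adjusted p = 2.56e-14). Hb, MD and MG did not overlap with one another. Of the 10 measured endothelial markers 1 was higher and 5 were lower in Hb, 1 was higher in MD and 0 in MG. Gpr4 was also higher in SO, the lateral geniculate nucleus, the lateral septal nucleus and the ventral anterior and ventrolateral thalamus. In SO all 10 endothelial markers were higher. The part of vessels in the Gpr4 values was not tested.

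Gpr12, which like Gpr6 and Gpr3 raises cyclic AMP without a ligand, was high in the sensory and mediodorsal thalamus but not in Hb. It read 10.59 and 10.53 in MD, 10.53 and 10.28 in MG, and 10.24 and 10.27 in the ventral posterior nuclei (VPM/VPL), against 9.23 and 9.29 in Hb. MD and MG touched at 10.53, and their differences from the other regions were 1.29 ± 0.08 (adjusted p = 1.47e-19) and 1.14 ± 0.08 (adjusted p = 6.76e-17). Its 2 other probe sets were highest in MD as well, and the one with the largest range gave 2.12 there. Gpr153, an orphan, was highest in MD too, at 10.62 and 10.68, with a difference of 1.43 ± 0.10 (adjusted p = 2.56e-17). Next for Gpr153 came the posterior olfactory bulb, at 10.22 and 10.33, and it was lowest in CA1, at 7.88 and 7.93.

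In the hippocampus, Gpr22 and Gpr161 both peaked in CA1 but parted elsewhere. Gpr22, an orphan of brain and heart, read 11.24 and 11.05 in CA1, 10.70 and 11.11 in CA2/CA3, and 10.77 and 10.51 in the dentate gyrus (DG). CA1 and CA2/CA3 overlapped, and the difference in CA1 was 2.54 ± 0.12 (adjusted p = 1.57e-25). Ventral S and the posterior amygdala came next, and then the cerebellar cortex, its lobe at 10.26 and 10.24, ahead of the cingulate, piriform and motor cortex. The 4 lowest regions were hypothalamic, with 6.49 and 6.77 in the median eminence (ME) and 7.00 and 6.95 in the arcuate nucleus (Arc). The other probe set of Gpr22 had a like profile (r = 0.90), but its highest region was the cerebellar lobe.

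Gpr161, a ciliary receptor that restrains Hedgehog signalling, read 10.94 and 10.71 in CA1, 9.91 and 9.85 in ventral S and 8.86 and 8.86 in CA2/CA3. It then fell away to 6.33 and 6.52 in DG, among its lowest regions, with only the mean of CPu lateral lower, at 6.41 and 6.37. CA1 lay above all other arrays, with a difference of 3.40 ± 0.10 (adjusted p = 3.25e-35), and the difference in DG was -1.09 ± 0.10 (adjusted p = 3.31e-14). So DG, which was among the highest regions of Gpr22, was among the lowest of Gpr161. A second, dimmer probe set of Gpr161 was also highest in CA1, by 0.53, and followed the first weakly (r = 0.37). The superior colliculus was the first region outside the hippocampal formation for Gpr161, at 8.73 and 8.54, with a difference of 1.16 ± 0.10 (adjusted p = 3.03e-14).

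Other members with forebrain peaks had narrower ranges. Gpr27 read 9.20 and 9.16 in CA1, above every other array, with a difference of 1.08 ± 0.09 (adjusted p = 6.93e-16). Gpr25, an orphan, read 9.17 and 9.11 in ventral S, also above every other array, with a difference of 1.16 ± 0.09 (adjusted p = 3.88e-15). Gpr26, which signals without a ligand, read 9.28 and 9.56 in Tu and 9.45 and 9.36 in the piriform cortex (Pir), which overlapped. In Gpr26 the difference in Tu was 1.06 ± 0.08 (adjusted p = 1.29e-17), while its other probe set gave 0.62 there and was highest in Pir. Gpr162, an orphan, peaked in the posterior olfactory bulb, at 11.42 and 11.62, by 0.71 ± 0.08 (adjusted p = 1.72e-11), and by 0.45 when set only against regions of the same sampling period.

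In the hypothalamus, Gpr101 and Gpr165 were raised in most of its nuclei. Gpr101, which couples to cyclic AMP and is known for gene duplications that cause gigantism, read 8.54 and 9.18 in Arc, 8.47 and 8.50 in MPA, 8.42 and 8.28 in the ventral subparaventricular zone (SPa ventral), 8.43 and 8.06 in the paraventricular nucleus (Pa) and 8.50 and 7.96 in the dorsomedial nucleus (DM). Arc lay just above the rest, by 2.71 ± 0.13 against the other 47 regions (adjusted p = 2.66e-24). Outside the hypothalamus, ventral S was the highest, at 8.17 and 8.19, by 2.02 ± 0.13 (adjusted p = 1.29e-18), followed by the anterior amygdala at 7.57 and 7.51. Within the hypothalamus, SO at 5.69 and 6.15 did not pass the test (-0.29 ± 0.13, adjusted p = 0.0717). Gpr101 was at 4.97 and 4.81 in the cerebellar lobe, its lowest region.

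Gpr165, an orphan, had another order of nuclei. It read 9.63 and 9.32 in the ventromedial nucleus (VMH), 9.14 and 9.12 in MPA and 8.58 and 9.10 in the lateral hypothalamus (LH), and VMH lay above all other arrays with a difference of 2.52 ± 0.15 (adjusted p = 5.16e-20). Over the 12 hypothalamic regions the arrays of Gpr165 ran from 6.94 to 9.63 with a median of 8.17, beside 5.95 to 7.89 with a median of 6.55 elsewhere. The corresponding figures for Gpr101 were 5.69 to 9.18 with a median of 7.73, beside 4.81 to 8.19 with a median of 5.38. The hypothalamus was higher than the other regions by 1.55 ± 0.05 for Gpr165 (adjusted p = 3.36e-34) and 1.90 ± 0.04 for Gpr101 (adjusted p = 2.59e-41), although the ranges overlapped in both.

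Gpr149, an orphan, was low in most of the brain and high in 3 regions, SPa dorsal and VMH of the hypothalamus and Tu of the telencephalon. SPa dorsal read 8.29 and 8.09, VMH 7.85 and 7.72, and Tu 7.77 and 7.73, while the fourth, the ventral tegmental area, read 5.93 and 6.08. The differences were 3.22 ± 0.09 (adjusted p = 2.59e-34), 2.80 ± 0.09 (adjusted p = 2.21e-31) and 2.77 ± 0.09 (adjusted p = 6.02e-32). SPa dorsal lay above VMH, and VMH and Tu overlapped. Other regions of these divisions were much lower: SPa ventral read 5.13 and 5.67, DM 5.36 and 5.09, and CPu lateral 4.76 and 4.65. Whether the SPa dorsal and VMH punches shared tissue was not tested. In all, 9 regions passed the test upwards. A second probe set of Gpr149 followed the same course (r = 0.96) with Tu highest and a difference of 1.73 in SPa dorsal.

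Gpr50, related to the melatonin receptors but without affinity for melatonin, was highest at the floor of the hypothalamus. It read 9.26 and 9.63 in ME and 8.91 and 9.14 in Arc, which did not overlap, and 7.85 and 7.55 in DM. The difference was 2.89 ± 0.10 in ME (adjusted p = 6.43e-32) and 2.46 ± 0.10 in Arc (adjusted p = 3.45e-28). The other probe set of Gpr50 had a wider range, 6.72 against 3.31, with differences of 6.01 in ME and 5.07 in Arc. In ME all 11 leptomeningeal markers and 5 of 8 measured anterior pituitary markers were higher and all 10 neuronal markers lower, and their part in the Gpr50 value was not tested. In Arc 10 of the 11 leptomeningeal and 3 of the 8 pituitary markers were higher and 9 of the 10 neuronal markers lower, with median differences of 1.00, -0.05 and -0.84. The mean pituitary score was 1.89 in ME and 1.32 in Arc, and the part of these lists in the Arc value was not tested either.

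Gpr176, an orphan that couples to the G protein Gz and is known from the circadian clock, was highest in the SCN at 9.59 and 9.55, above every other array. The difference was 0.99 ± 0.09 (adjusted p = 4.91e-14), followed by SPa ventral at 9.34 and 9.42 and Arc at 9.38 and 9.32. Since each array pools 6 times of day, this is a mean over the cycle. Gpr19, an orphan, was also highest in the SCN, at 10.06 and 10.02, by 0.63 ± 0.06 (adjusted p = 1.79e-13), but touched ME at 10.02, and a second, dimmer probe set of it gave -0.28 in the SCN. Gpr45 was highest in Arc (8.84 and 8.67), Gpr135 in SPa dorsal (9.56 and 9.47) and Gpr1, a receptor for chemerin, in SPa dorsal (7.71 and 7.34). The difference for Gpr45 was 0.62 ± 0.08 (adjusted p = 2.22e-09), but it was -0.09 in its other probe set. That for Gpr135 was 0.77 ± 0.08 (adjusted p = 1.07e-11). That for Gpr1 was 0.49 ± 0.09 (adjusted p = 1.12e-05), and 0.31 with an adjusted p of 0.0763 without replicate 1 of SPa dorsal.

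The members known from glia come next. Gpr37, a receptor of myelinating oligodendrocytes, read 11.19 and 11.51 in the anterior spinal cord, 11.12 and 11.38 in the cerebellar nucleus (Cb nucleus) and 10.99 and 11.24 in VPM/VPL, which overlapped. The difference in the anterior spinal cord was 1.87 ± 0.13 (adjusted p = 3.46e-18). It was lowest in the posterior amygdala, at 7.30 and 7.74. All 14 measured oligodendrocyte markers were higher in the anterior spinal cord (median difference 1.94) and all 14 lower in the posterior amygdala (-2.56), and their part in the Gpr37 values was not tested. Over the 48 regions Gpr37 and the mean of this list had r = 0.96 and rho = 0.96, and with the neuronal list r was 0.19, a description of points that share normalization and cell mixtures.

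Gpr62, an orphan that signals without a ligand, ran beside Gpr37. It read 9.75 and 10.09 in the anterior spinal cord, 9.51 and 9.50 in the SCN and 9.37 and 9.50 in the posterior spinal cord, with the anterior cord above all other arrays by 1.61 ± 0.12 (adjusted p = 1.25e-17). Its lowest region was Tu, at 6.78 and 6.99. With the oligodendrocyte list Gpr62 had r = 0.91, and all 14 markers were higher in the SCN punches (median difference 1.69). A second probe set of Gpr62 never exceeded 5.05 and did not follow the first (r = 0.00), giving -0.04 in the anterior spinal cord. The levels of Gpr62 thus rest on 1 probe set.

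Gpr137b, a lysosomal membrane protein, was highest in Cb nucleus (9.91 and 9.92) and the anterior spinal cord (9.77 and 10.03), by 0.84 ± 0.08 (adjusted p = 2.43e-13) and 0.82 ± 0.08 (adjusted p = 3.25e-13). Its probe set is of a type that can match more than 1 transcript, and a second one ran much alike (r = 0.87) with the SCN highest. Its dimmer probe sets, with highest means of 6.23 and 4.63, did not follow the main one (r = 0.01 and 0.04). Over the regions Gpr137b in its main probe set was nearer to the astrocyte list (r = 0.82) than to the oligodendrocyte list (r = 0.66). Gpr17, a receptor that times the maturation of oligodendrocyte precursors, did not take this course. It read 10.11 and 10.52 in the SCN, 10.44 and 10.14 in SN and 9.95 and 10.41 in ME, which all overlapped, while the anterior spinal cord read only 8.86 and 8.92. The difference in the SCN was 1.10 ± 0.12 (adjusted p = 1.85e-11), 5 of the 8 measured precursor markers were higher there, and r with the precursor list was 0.59. Gpr17 was lowest in the cerebellar lobe, at 8.03 and 8.04.

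Gpr37l1, the astrocytic relative of Gpr37, had its peak in the cerebellar cortex. It read 12.97 and 12.98 in the lobe and 12.96 and 12.76 in the vermis, and these arrays were above all others, whose highest region was the SCN at 12.41 and 12.43. The difference was 1.21 ± 0.07 in the lobe (adjusted p = 4.23e-23) and 1.09 ± 0.07 in the vermis (adjusted p = 5.96e-21). Of the 10 astrocyte markers 4 were higher and 4 lower in the lobe (median difference 0.01), so the list did not move with Gpr37l1 there, although r over the 48 regions was 0.71.

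Gpr34, the lysophosphatidylserine receptor of microglia, was highest in SN and GP. The SN arrays read 7.89 and 6.93 and the GP arrays 7.07 and 7.59, so the regions overlapped and the spread between replicates was wide. The difference was 1.16 ± 0.14 in SN (adjusted p = 1.51e-09), but 0.68 without replicate 1 of SN, and 1.07 ± 0.14 in GP (adjusted p = 1.47e-08). All 12 measured microglia markers were higher in SN (median difference 0.84) and in GP (1.02), and all 12 lower in the cerebellar vermis, where Gpr34 was lowest at 5.53 and 5.43. Their part in the Gpr34 values was not tested. Over the regions r with that list was 0.87 for Gpr34 and 0.73 for Gpr84, a receptor for medium-chain fatty acids, which read 7.13 and 7.12 in GP.

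Gpr174, a lysophosphatidylserine receptor of lymphocytes, was raised in a single region. GP read 7.04 and 7.24, above every other array, and the next region, ventral S, 6.24 and 6.30. The difference in GP was 1.12 ± 0.10 (adjusted p = 2.37e-13), and no other region passed the test upwards. GP was the only region where Gpr174 reached 7, so this p-value draws on the value that placed it in the profile. A dimmer second probe set was also highest in GP, by 0.64. Gpr182, a scavenger of chemokines on endothelium, read 8.00 and 7.81 in SO, above every other array, by 0.98 ± 0.07 (adjusted p = 3.20e-17). In SO all 11 leptomeningeal markers (median difference 2.91) and all 10 measured endothelial markers (0.88) were higher, and all 10 neuronal markers lower, and their part in the Gpr182 value was not tested. Over the regions r with the leptomeningeal list was 0.90.

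**Figure D3:**
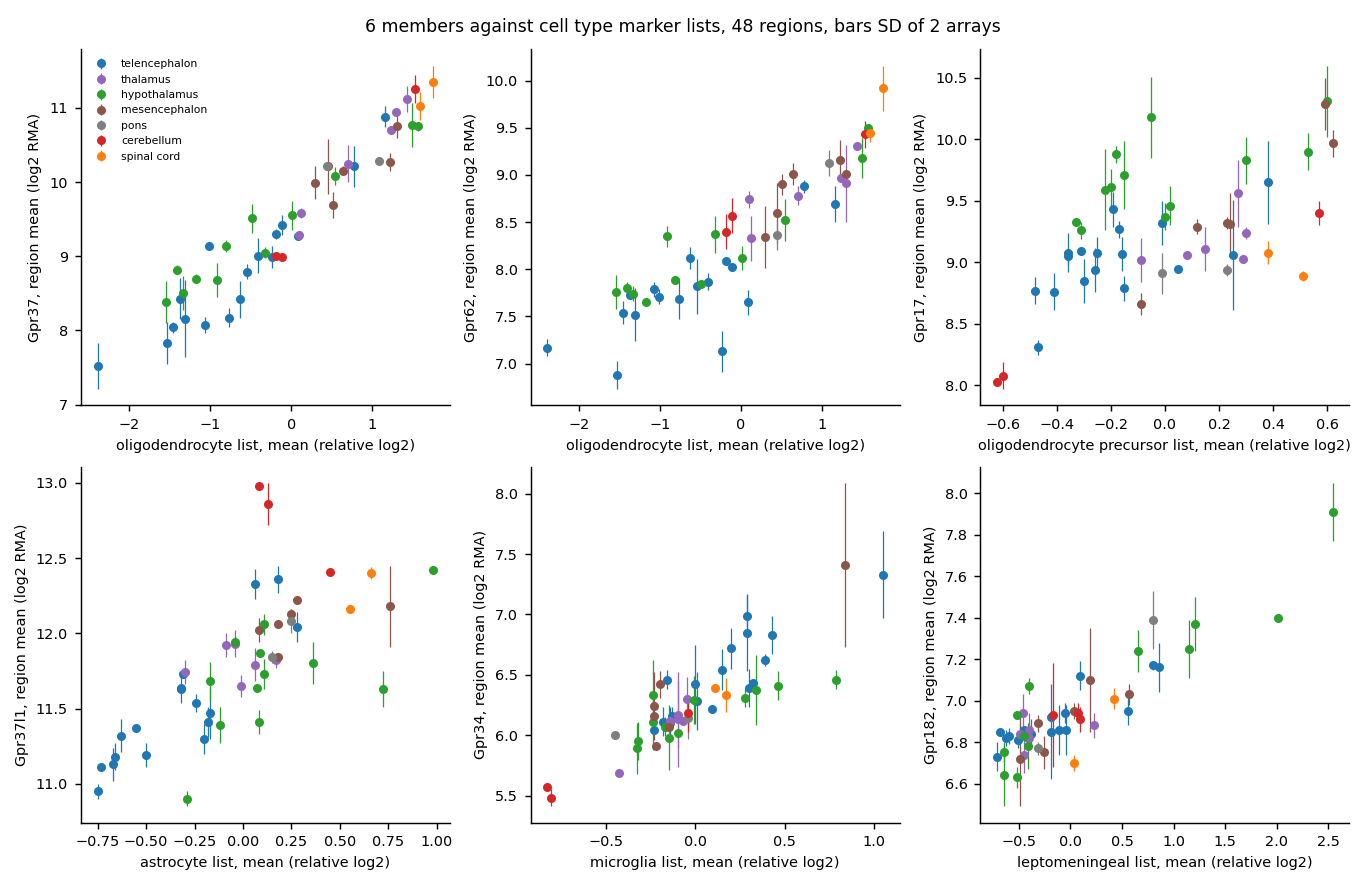
Region means of 6 members (vertical axis, log2 RMA, bars SD of 2 arrays) against the mean relative log2 level of a cell type marker list (horizontal axis), 48 regions coloured by division. Gpr37 and Gpr62 lie close to a line over the oligodendrocyte list, Gpr17 scatters over the precursor list, the cerebellar cortex stands above the rest for Gpr37l1, and the SO value of 7.91 is the extreme point for Gpr182.

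Relatives within a family mostly had different maps. Gpr3, Gpr6 and Gpr12 share the property of raising cyclic AMP without an added ligand, but Gpr3 and Gpr6 had r = -0.33, Gpr3 and Gpr12 0.20, and Gpr6 and Gpr12 0.07 over the 48 regions. Gpr3 was highest in Hb, at 8.34 and 8.49, by 0.62 ± 0.09 (adjusted p = 1.79e-07), overlapping with the pontine nucleus (Pn), and lowest in the SCN, at 7.23 and 7.34. So the peaks of this family fell in Hb, the striatum and MD. Gpr37 and Gpr37l1 had r = 0.42.

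The SREB receptors, whose proteins are among the most conserved of all G protein-coupled receptors and are known from brain, were closer. Gpr85 and Gpr173 had r = 0.79, Gpr27 and Gpr85 0.50, and Gpr27 and Gpr173 0.32. Gpr85 read 10.07 and 9.94 in CA1 and 9.91 and 9.82 in Pir, and its difference in CA1 was 0.81 ± 0.11 (adjusted p = 2.34e-08), or 0.45 within the same sampling period. Gpr85 was lowest in Pn, at 7.45 and 7.72, with MG next at 7.87 and 8.13. Gpr173 read 8.55 and 8.76 in Pir, by 0.81 ± 0.08 (adjusted p = 4.81e-13), or 0.50 within the same period, but only 0.13 in a second probe set (adjusted p = 0.184). It was lowest in Cb nucleus, at 6.84 and 7.19, and next in VPM/VPL, at 7.11 and 7.31, which was also among the lowest regions of Gpr85, at 8.27 and 7.99.

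Gpr26, Gpr61, Gpr62 and Gpr101, which can signal without a ligand, had r between -0.49 and 0.15. Gpr61 was highest in DG at 8.80 and 8.94, by 0.39 ± 0.09 (adjusted p = 0.000238), or 0.32 with an adjusted p of 0.0545 without replicate 2 of DG, with the cerebellar lobe lowest at 7.83 and 7.62. Of the proton sensors, Gpr65 and Gpr132 stayed under a mean of 7 in every region, and r among Gpr4, Gpr65 and Gpr132 was at most 0.22. Gpr45 and Gpr63 had r = 0.30, and Gpr63 read 7.22 and 7.35 in CA1, its highest region.

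**Figure D4:**
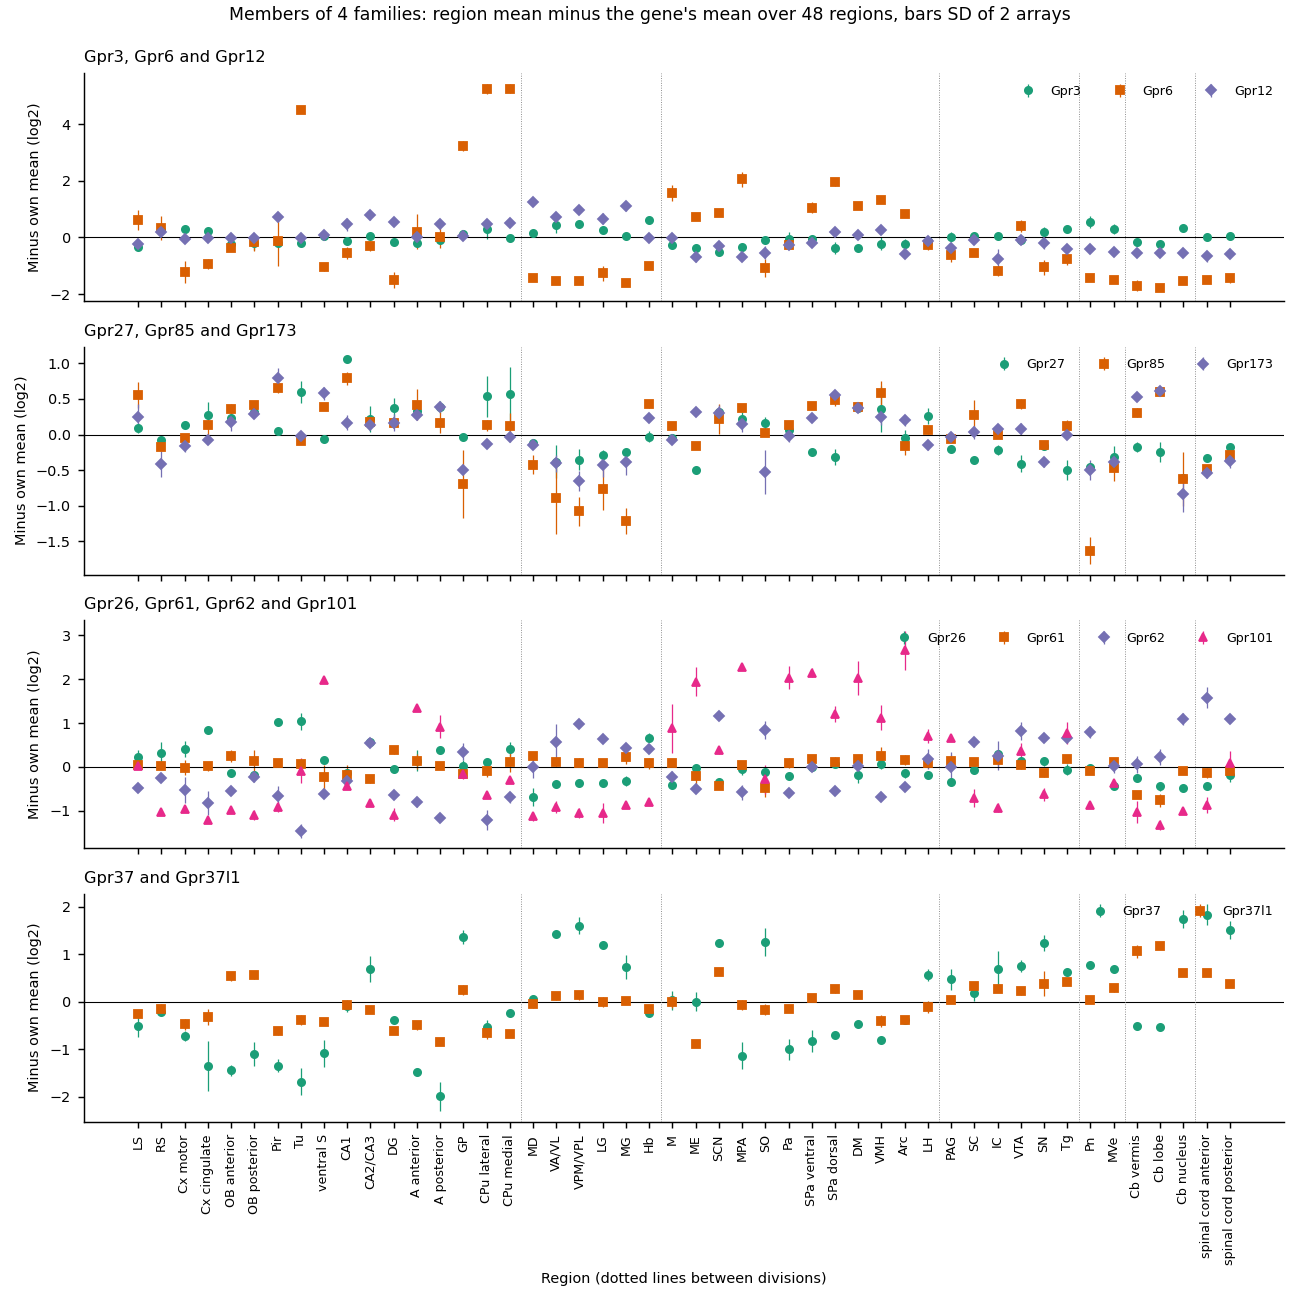
Region mean minus the gene's own mean over 48 regions (log2, bars SD of 2 arrays) for 4 families, regions grouped by division between dotted lines. Gpr6 peaks in the striatum, Gpr12 in the thalamus and Gpr3 in Hb, Gpr85 and Gpr173 are both low in VPM/VPL and in Pn, Gpr101 rises over the hypothalamus, and Gpr37l1 rises in the cerebellar cortex where Gpr37 does not.

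Proteins with a Gpr symbol outside the main receptor classes ranged from 0.44 for Gpr143 over 1.46 for Gpr137b to 3.48 for Gpr155. Gpr137, a lysosomal protein, read 10.60 and 10.93 in Pn and 10.76 and 10.75 in the ventral anterior and ventrolateral thalamus (VA/VL), by 0.65 ± 0.07 (adjusted p = 1.41e-10) and 0.64 ± 0.07 (adjusted p = 1.71e-10). Gpr137c peaked in the cerebellar lobe, at 7.52 and 7.61, by 0.53 ± 0.06 (adjusted p = 1.02e-10), and Gpr180 there as well, at 8.99 and 9.04, by 0.40 ± 0.06 (adjusted p = 6.12e-07). Gpr107 and Gpr108, Golgi proteins used by toxins and viruses to enter cells, were both highest in SO, at 9.22 and 9.13 and at 10.21 and 10.24. Gpr107 has 5 probe sets, which disagreed: r with the main one ran from -0.33 to 0.28. Gpr89, a regulator of Golgi pH, had a range of only 0.49.

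The remaining profile members had small peaks. Gpr146, linked to blood cholesterol in liver, read 8.61 and 8.71 in the SCN, by 0.76 ± 0.10 (adjusted p = 2.40e-08), but 0.13 in a second probe set. Gpr75 was highest in the cerebellar vermis at 8.31 and 8.31, by 0.51 ± 0.06 (adjusted p = 1.46e-09), and Gpr39, a sensor of zinc, in the posterior amygdala at 7.11 and 6.91, by 0.59 ± 0.09 (adjusted p = 7.45e-07). For Gpr39 the lateral septal nucleus was close, at a mean of 6.96, and was the highest region in replicate 2. Only the posterior amygdala reached 7, so its p-value draws on the value that placed Gpr39 in the profile. The ranges of Gpr20, Gpr63, Gpr84, Gpr89, Gpr107, Gpr143, Gpr152, Gpr179 and Gpr183 were between 0.44 and 0.67. In 15 of the 60 members, most of them with such narrow ranges, the call in the highest region was lost without 1 of its 2 arrays. Gpr179, known from the retina, was one of these, at 7.51 and 7.70 in ME.

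The 9 members that never reached a region mean of 7 were Gpr15, Gpr18, Gpr31b, Gpr33, Gpr35, Gpr65, Gpr132, Gpr160 and Gpr171, most of them known from immune cells. Their ranges ran from 0.39 for Gpr171 to 0.67 for Gpr35. Their means in the 48 regions are all under the array medians of 7.32 to 7.46. At low signal, a gene that is off and a probe set that responds weakly cannot be told apart. The same limit holds for the low regions of profile members, such as Gpr149 (median 4.71), Gpr151 (5.02) and Gpr101 (5.81). The smallest F test p-values of the 9 were those of Gpr160 (adjusted p = 2.14e-05), highest in SO at a mean of 6.20 against a median of 5.87, and Gpr65 (adjusted p = 3.26e-05), with a mean of 4.94 in ME and 4.86 in SO against a median of 4.42. The r of Gpr65 with the leptomeningeal list was 0.74.

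By division, more members were lower than higher in the cerebellum, spinal cord, pons and thalamus, and by 1 member in the telencephalon. In the cerebellum 15 of the 60 were higher (25%) and 30 lower (50%), where the backgrounds are 24.4% and 30.2% of probe sets and 25.7% and 34.7% of genes. The median difference was -0.10 over the members and -0.05 over all genes. In the spinal cord 7 were higher (11.7%) and 23 lower (38.3%), with backgrounds of 18.2% and 22.1% of probe sets and 22.5% and 21.5% of genes, and medians of -0.09 and -0.01. In the pons 8 were higher (13.3%) and 18 lower (30%), with backgrounds of 18.9% and 17.6% of probe sets and 23.6% and 18.6% of genes, but only 11 were lower when regions of the same sampling period alone were compared. The 7 members higher in the spinal cord were Gpr37, Gpr37l1, Gpr62, Gpr137, Gpr137b, Gpr155 and Gpr176.

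In the hypothalamus 22 were higher (36.7%) and 19 lower (31.7%), with backgrounds of 29.2% and 29.3% of probe sets and 33% and 30.5% of genes. In the telencephalon 21 were higher (35%) and 22 lower (36.7%), with backgrounds of 26.5% and 30.1% of probe sets and 26.8% and 35.7% of genes. In the thalamus 14 were higher (23.3%) and 22 lower (36.7%), with backgrounds of 19.3% and 23% of probe sets and 21% and 26.9% of genes. In the mesencephalon 13 were higher (21.7%), or 8 with the probe set of second highest mean, and 7 lower (11.7%), with backgrounds of 16.9% and 17.1% of probe sets and 22.2% and 16.8% of genes.

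**Figure D5:**
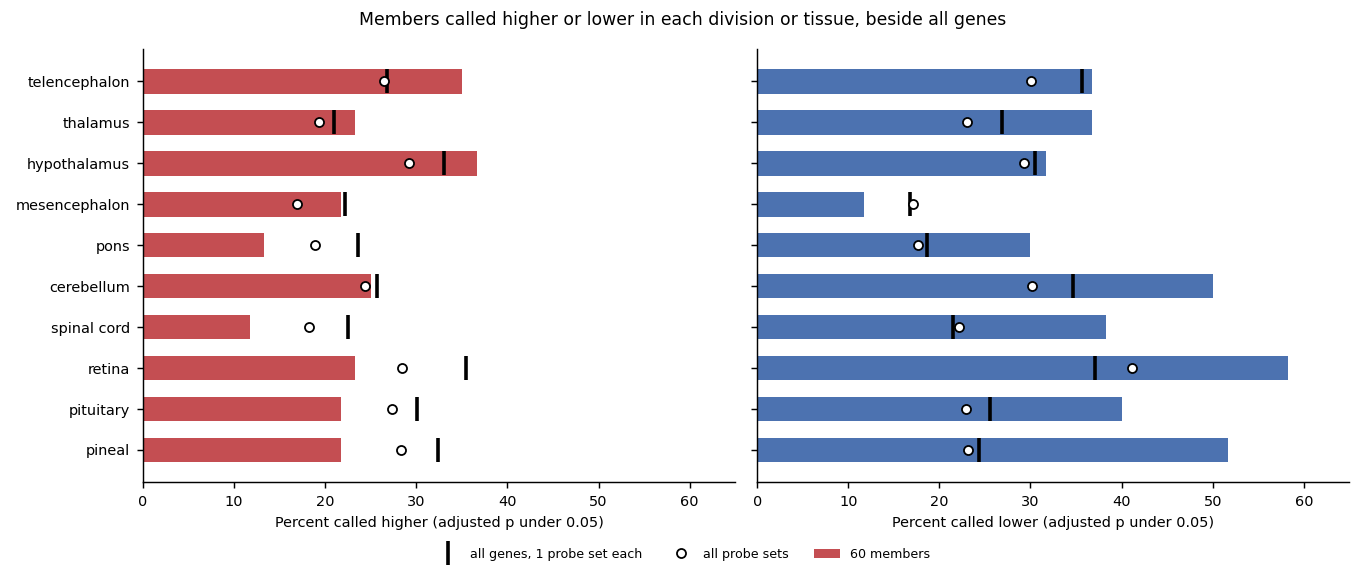
Percent of the 60 members called higher (left) and lower (right) in each division and in retina, pituitary and pineal (bars), beside the percent of all genes (ticks) and of all probe sets (open circles) called in the same comparison. The bars for lower calls reach past both marks in all but the mesencephalon (11.7%), narrowly in the hypothalamus (31.7%) and telencephalon (36.7%), and highest in the retina (58.3%), pineal (51.7%) and cerebellum (50%).

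A few members set the largest differences of every division. In the cerebellum Gpr22 was higher by 1.04 ± 0.07 (adjusted p = 3.98e-19), or 1.66 in its other probe set, and Gpr37l1 by 1.02 ± 0.04 (adjusted p = 1.74e-30), and the difference for Gpr6 was -1.79 ± 0.10 (adjusted p = 9.92e-23). In the spinal cord Gpr37 was higher by 1.75 ± 0.09 (adjusted p = 2.10e-23) and Gpr62 by 1.40 ± 0.08 (adjusted p = 2.31e-21), or 0.04 in its dim second probe set. In the telencephalon Gpr6 was higher by 1.20 ± 0.05 (adjusted p = 5.01e-29), or 0.60 within the same sampling period. There the difference was -1.10 ± 0.04 for Gpr37 (adjusted p = 9e-33) and -0.86 ± 0.03 for Gpr62 (adjusted p = 3.79e-30). In the hypothalamus the difference was -1.29 ± 0.04 for Gpr22 (adjusted p = 2.36e-35) and -0.72 ± 0.03 for Gpr155 (adjusted p = 1.80e-27).

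The thalamic, midbrain and pontine differences were of the same kind. Gpr12 was higher in the thalamus by 0.90 ± 0.04 (adjusted p = 1.35e-29), or 1.48 in its probe set of largest range, with arrays from 9.23 to 10.59 against 8.29 to 10.19 elsewhere. Gpr151 was higher there by 1.09 ± 0.03 (adjusted p = 1.32e-36), or 2.07 within the same period, but the median of its thalamic arrays was 5.10, and only Hb and MD were higher among them. Gpr161 was higher in the mesencephalon by 0.63 ± 0.04 (adjusted p = 3.98e-19) and -0.01 in its dimmer probe set, and the difference there for Gpr27 was -0.35 ± 0.04 (adjusted p = 1.42e-11), or -0.22 within the same period. In the pons the difference for Gpr85 was -1.09 ± 0.08 (adjusted p = 2.69e-17), and Gpr37 was higher by 0.77 ± 0.09 (adjusted p = 6.61e-10), or 0.29 within the same period. In every division the arrays of each member overlapped with those of the other regions.

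Outside the 48 regions, Gpr17, Gpr37, Gpr37l1 and Gpr62 were lower in the retina, pituitary and pineal alike. Gpr37l1, with a mean of 11.80 over the 48 regions, read 8.26 and 8.38 in the retina, 8.06 and 8.10 in the pituitary and 8.55 and 8.60 in the pineal. The differences were -3.47 ± 0.06 (adjusted p = 4.42e-48), -3.72 ± 0.06 (adjusted p = 5.84e-49) and -3.22 ± 0.06 (adjusted p = 2.93e-46). Gpr37 read 5.48 and 5.59 in the pituitary and 5.35 and 5.15 in the pineal, against a mean of 9.51 over the 48 regions, with differences of -3.98 ± 0.16 (adjusted p = 7.63e-31) and -4.26 ± 0.16 (adjusted p = 1.44e-32). Gpr22 read 6.09 and 6.16 in the retina, a difference of -2.53 ± 0.12 (adjusted p = 9.49e-28), or -0.94 in its other probe set, and Gpr85 read 6.02 and 6.12 in the pineal, a difference of -3.14 ± 0.12 (adjusted p = 1.99e-32).

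Some members were higher in 1 or more of these 3 tissues than on any brain array. Gpr143, the ocular albinism receptor of pigment cells, read 10.36 and 10.34 in the retina, while its highest brain region had a mean of 7.28, a difference of 3.25 ± 0.08 (adjusted p = 5.06e-41). Gpr160 read 7.00 and 7.98 in the retina, by 1.62 ± 0.10 (adjusted p = 6.83e-22), with replicates apart but both above all 96 brain arrays. Gpr146 read 9.44 and 9.46 in the retina and 9.38 and 9.49 in the pineal, by 1.53 ± 0.10 (adjusted p = 2.10e-20) and 1.52 ± 0.10 (adjusted p = 4.65e-20), or 0.45 and 0.56 in a second probe set. Gpr180 was above all brain arrays in all 3 tissues, and read 10.07 and 10.14 in the pineal, by 1.49 ± 0.07 (adjusted p = 1.30e-28).

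In the pituitary, Gpr180, Gpr19 and Gpr108 were above all brain arrays. Gpr180 read 9.89 and 9.80 there, by 1.22 ± 0.07 (adjusted p = 2.09e-24), Gpr19 10.46 and 10.18, and Gpr108 10.36 and 10.46. Gpr153 and Gpr149 were higher in the pituitary than the mean of the 48 regions but not above every brain array. Gpr153 read 10.65 and 10.49, by 1.32 ± 0.11 (adjusted p = 1.04e-16). Gpr149 read 6.94 and 5.98, by 1.42 ± 0.11 (adjusted p = 4.78e-17), or 0.94 without replicate 1 of the pituitary and 0.80 in its second probe set. Gpr19 read 10.49 and 10.29 in the pineal, by 0.97 ± 0.06 (adjusted p = 3.28e-21), but 0.02 in its dimmer probe set. Of the 60 members, 14 were higher and 35 lower in the retina, where the backgrounds are 28.4% and 41.1% of probe sets and 35.4% and 37.1% of genes. In the pituitary 13 were higher and 24 lower, beside 27.3% and 22.9% of probe sets and 30.1% and 25.6% of genes. In the pineal 13 were higher and 31 lower, beside 28.3% and 23.1% of probe sets and 32.4% and 24.4% of genes. The count of 13 higher in the pituitary was 8 without its replicate 1.

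Among the 1275 pairs of profile members, 9 had r of at least 0.70 over the 48 regions, and 5 did in replicate 2 alone. Besides the pairs already named these were Gpr62 with Gpr137b (0.78), Gpr37l1 with Gpr137b (0.70), Gpr45 with Gpr101 (0.73) and with Gpr176 (0.72), and Gpr101 with Gpr176 (0.71) and with Gpr165 (0.70). The pairs at 0.70 to 0.73 lie at the limit chosen. The most opposed were Gpr37 with Gpr173 (-0.71), Gpr25 with Gpr108 (-0.69) and Gpr3 with Gpr173 (-0.63). These are descriptions over 48 regions that share normalization, sampling days and cell mixtures.

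Of 36 listed G protein alpha subunits, adenylyl cyclases, receptor kinases and arrestins, 34 were measured. The counts higher and lower were 16 (47.1%) and 9 (26.5%) in the telencephalon, 9 (26.5%) and 17 (50%) in the thalamus, 6 (17.6%) and 17 (50%) in the cerebellum and 4 (11.8%) and 12 (35.3%) in the pons. They were 12 (35.3%) and 11 (32.4%) in the hypothalamus, 10 (29.4%) and 4 (11.8%) in the mesencephalon and 8 (23.5%) and 8 (23.5%) in the spinal cord. The shares of all genes called are those given with the division counts, 26.8% and 35.7% in the telencephalon, 21% and 26.9% in the thalamus and 33% and 30.5% in the hypothalamus among them. Gnal, the stimulatory alpha subunit of striatum and olfactory neurons, read 13.16 and 12.86 in Tu, with a difference of 2.33 ± 0.14 (adjusted p = 9.90e-21) and CPu lateral next. Adcy5, the main striatal adenylyl cyclase, read 13.27 and 13.12 in CPu medial, by 2.65 ± 0.07 (adjusted p = 2.56e-36). So Tu and CPu medial, where Gpr83 and Gpr6 were highest, were also the highest for Gnal and Adcy5. Other listed genes went the other way in the striatum. Gnas, of the same class as Gnal, was lowest in CPu medial, at a mean of 11.44 against a median of 13.28. Gnai1, Gnai2, Adcy8 and Grk3 were lowest in CPu lateral and Adcy6 in Tu. In MPA, where Gpr6 was raised as well, the striatal list that includes Adcy5 was not.

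Other partners peaked elsewhere. Adcy1, a cyclase activated by calcium, had the widest range of the list, from 8.19 in ME to 13.54 and 13.68 in the cerebellar lobe, by 2.71 ± 0.13 (adjusted p = 2.74e-25). Adcy8 peaked in MD, with a mean of 8.91, by 1.65 ± 0.11 (adjusted p = 2.06e-18), the region where Gpr12 and Gpr153 were highest. Grk5, a receptor kinase, peaked in the lateral septal nucleus, at 9.82 and 10.03, by 2.30 ± 0.09 (adjusted p = 2.44e-28). Of the inhibitory class Gnai1 had the widest range (1.91), with 12.41 and 12.46 in the lateral septal nucleus, of the Gq class Gnaq (1.76), with 11.81 and 11.79 in CA1, and of the G12 class Gna12 (2.20), with 10.90 and 10.85 in the SCN. Of the arrestins Arrb1 had the widest range (2.10), with 11.30 and 11.36 in the posterior olfactory bulb.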

How the data were processed

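RNA of 51 regions was measured on 102 Affymetrix Mouse Genome 430 2.0 arrays, 2 per region, each a separate pool of mice. Background correction, quantile normalization across arrays and probe summary were those of RMA as the authors ran it (version not given in the sources used here), and what they deposited is on the log2 scale. Of 45037 probe sets without the 64 controls, 34945 name 1 gene in the platform annotation, 932 several and 9160 none, and only the first kind was used for genes. All 60 symbols were found in RefSeq and 0 changed. Precision is limited by the number of arrays. Array medians lay between 7.32 and 7.46, and in no region were the 2 arrays identical.

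limma 3.58.1 in R 4.3.3 was fitted with 1 coefficient per region on the 96 arrays of 48 regions (48 residual and 6.63 prior degrees of freedom) and, for the retina, pituitary and pineal, on all 102. Tested on simulated shifts of 0.5 to 4 in the habenular nucleus, it recovered 100% with 6 false calls among 8000 probe sets. The simulated arrays held independent noise around 1 mean per probe set, with no other regional differences and no effects shared between arrays. The test therefore does not cover smaller shifts or the rate of false calls on the real arrays. Alternatives were a replicate block, the sampling day as a random block, comparison within the same sampling period, cyclic loess, trend and robust variances, a highest region mean of at least 7, another probe set of the gene, leaving out each array and, chosen after seeing the data, leaving out SO, ME and SCN. The probe set with the highest mean stands for a gene. Full values go to the 25 members with the widest range, those the study names with a region, the 3 largest differences in each direction by division and tissue, and families. The members and lists were chosen with earlier results of these data known. Python 3.11.15 with numpy 2.4.6, pandas 2.3.3, scipy 1.17.1 and matplotlib 3.10.9 made the tables and figures.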

Additional observations from a re-analysis of the deposited data

How the results depend on the processing

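The replicate numbers do not pair the arrays in a common direction. Of 1128 pairs of regions, 282 deviated together with a correlation over 0.1 and 234 under -0.1 (mean 0.00853). Many pairs of regions thus shared deviations of either sign, while the main fit treats the arrays as independent. With the replicate block, 58 of the 60 members differed among regions, 515 pairs of a member and a region were higher and 607 lower, and no named difference changed its side of the threshold, nor did any with the sampling day block or trend and robust variances. Of the named differences, those of Gpr33 in SC (0.15), Gpr132 in A posterior (0.12) and Gpr152 in SO (0.25) lost the call under cyclic loess, those of Gpr33 (0.19) and Gpr132 (0.20) without SO, ME and SCN, and that of Gpr33 (0.16) within the same sampling period, where Gpr143 in A posterior (0.22) gained one. The counts of pairs over all regions and of members by division and tissue stayed within 1.5 times of those reported under the replicate block, the sampling day block, cyclic loess, trend and robust variances, the filter at 7, the widest-range probe set and the omission of SO, ME and SCN. With the probe set of second highest mean, 8 rather than 13 members were higher in the mesencephalon. Within the same sampling period 11 rather than 18 were lower in the pons. Pairs of members with r of at least 0.70 numbered 5 rather than 9 in replicate 2 alone. The causes were not tested.

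Leaving out 1 array in turn gave 56 to 59 members differing among regions, 502 to 520 pairs higher and 590 to 609 lower. Counts of members higher and lower ran from 12 to 15 and 26 to 31 in the cerebellum, 20 to 22 and 16 to 21 in the hypothalamus, 9 to 14 and 7 to 9 in the mesencephalon, 6 to 8 and 14 to 19 in the pons, 7 to 8 and 18 to 25 in the spinal cord, 20 to 21 and 21 to 23 in the telencephalon, and 12 to 15 and 22 in the thalamus. They ran from 12 to 14 and 33 to 36 in the retina, 8 to 13 and 22 to 25 in the pituitary, and 11 to 13 and 26 to 31 in the pineal. Of 12300 such refits of named differences, 18 lost the call and 0 reversed. Most of these refits left out an array from outside the named region, division or tissue, and so could change little. The 18 losses all came from leaving out 1 of the 2 arrays of the named region. The count of 15 members given above is therefore the closer measure.

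With the probe set of second highest mean, the difference was of the other sign for Gpr19 in the SCN (-0.28), Gpr45 in Arc (-0.09), Gpr183 in ventral S (-0.03, also with the probe set of largest range) and Gpr161 in the mesencephalon (-0.01). For Gpr62 it was -0.04 in the anterior spinal cord, -0.05 in the cerebellum, -0.03 in the mesencephalon and 0.01 in the telencephalon. That probe set is dim for Gpr19, Gpr62 and Gpr161. Low array signal limits the 9 members under 7 and the low regions of profile members.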
